A study of Mus musculus with 20 samples.

Results

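The urea cycle genes followed here are 7 mouse genes that encode enzymes of the cycle and the carriers that feed it: Cps1, Otc, Ass1, Asl, Nags, Slc25a15 and Slc25a13. They were chosen by symbol, matched to the Ensembl identifiers of the count table, and make up 7 of its 57010 genes. All 7 were present in the table, and each was followed through every library. In GRCm39 the genes of the mitochondrial steps lie on the plus strand, Cps1 at chr1:67161988-67270418, Nags at chr11:102036339-102040303 and Otc at chrX:10118503-10187265. Ass1 (chr2:31352181-31410862) lies on the plus strand too. Asl (chr5:130040099-130058088), Slc25a15 (chr8:22865516-22889423) and Slc25a13 (chr6:6040252-6217294) lie on the minus strand. No 2 members share a chromosome.

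The cycle turns ammonia, which is toxic to the brain, into urea, which the kidney excretes. In mitochondria, carbamoyl phosphate synthetase (Cps1) joins ammonia and bicarbonate, and needs the activator N-acetylglutamate made by Nags. Ornithine transcarbamylase (Otc) then forms citrulline, which leaves in exchange for ornithine through the carrier Slc25a15, and in the cytosol Ass1 and Asl build arginine from citrulline and from aspartate exported by the carrier citrin (Slc25a13). Arginine is then split into urea and ornithine. The whole cycle is known from periportal hepatocytes, while the proximal tubule of the kidney uses Ass1 and Asl to make arginine for the rest of the body.

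RNA sequencing was carried out on liver and kidney of 12-month-old male UM-HET3 mice, a stock in which each animal is genetically distinct. The 7c groups (6 livers and 6 kidneys) received a chemical reprogramming cocktail of repsox, tranylcypromine, DZNep, CHIR99021, forskolin and TTNPB, each at 0.1 mg/kg/day, and valproate at 1 mg/kg/day. The vehicle groups (4 livers and 4 kidneys) received only the solvent, equal parts of DMSO and PEG300. Both were delivered for 28 days by osmotic minipumps under the skin, so the surgery and the solvent were shared by all mice. The libraries are labelled as biological replicates, each tissue was sequenced as a whole, and a lower level of a transcript in such a sample can mean fewer cells of a type or less RNA per cell, which cannot be told apart.

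Libraries held between 27855849 and 64872451 counts. In every library between 75.1% and 83.2% of the entries from 1 to 20 were even numbers, against 51.1% to 57.8% of entries of 1000 or more, so 1 count may not stand for 1 independent fragment. Markers of the labelled tissues were in place, with the 12 hepatocyte markers summing to 91516 CPM (counts scaled to the library total times its TMM factor, set within each tissue) or more in every liver and the 10 proximal tubule markers to 14485 CPM or more in every kidney. The library labelled 7c liver replicate 6 also held skeletal muscle transcripts (660.4 CPM over 6 markers, against 1.28 CPM at most in the vehicle livers), and leaving it out put no member past the threshold in liver.

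The sequences before the start of Otc and Ass1 are shown because these genes lie at opposite ends of the distribution between the tissues described next, Otc in liver and Ass1 in both. Both are from RefSeq (build GRCm38.p6, plus strand), cover the 250 bases before the annotated start, and have every CG pair in capitals. Otc lies at chrX:10252055-10252304 and Ass1 at chr2:31470020-31470269.
Otc: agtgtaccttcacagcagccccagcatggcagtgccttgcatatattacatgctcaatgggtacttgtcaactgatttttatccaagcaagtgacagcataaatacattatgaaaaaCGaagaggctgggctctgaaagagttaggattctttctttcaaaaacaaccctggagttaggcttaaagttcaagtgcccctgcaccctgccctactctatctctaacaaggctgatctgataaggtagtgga
Ass1: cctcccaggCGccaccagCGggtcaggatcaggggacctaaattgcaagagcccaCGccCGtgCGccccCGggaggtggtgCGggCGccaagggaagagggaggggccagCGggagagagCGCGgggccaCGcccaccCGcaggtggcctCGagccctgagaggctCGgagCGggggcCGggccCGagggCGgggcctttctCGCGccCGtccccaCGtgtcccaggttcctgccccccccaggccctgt

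The Otc window held 1 CG pair and the Ass1 window 23, against a median of 6 over 32841 RefSeq windows of this length. Of the other members with a RefSeq window, Nags and Slc25a13 held 11 CG pairs each, and the 2 starts of Slc25a15 held 11 and 43. In all, 5 of the 7 members had a window, and those without one were Cps1 and Asl. The letters TATAAA, TTNNGCAA and CAAAGTCC, read on both strands, were in none of these windows and in 12.4%, 9.57% and 1.20% of all windows. The number of CG pairs did not follow the tissue distribution alone, since Nags, whose transcript was close to absent from kidney, held as many as Slc25a13, which was measured in both tissues.

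All 7 members had their higher mean level in liver, in 2 distinct ways. The transcripts of Cps1, Otc and Nags were close to absent from the kidney, whereas those of Ass1, Asl and both carriers were abundant in both tissues. Levels are given first in TPM, which correct for gene length and let genes be compared with each other.

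Cps1 in the vehicle livers measured 1817, 1901, 2226 and 1673 TPM. In the vehicle kidneys it measured 0.831, 0.228, 0.749 and 0.720 TPM, from 18 to 58 counts per library. The tissues did not overlap, with a log2 difference of liver minus kidney of 12.07 ± 0.39 (SE, n = 4 and 4; adjusted p = 1.72e-09 by edgeR's quasi-likelihood test with Benjamini-Hochberg adjustment, as for every adjusted p given here).

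Otc had the largest fitted difference of the 7 members in the vehicle mice. Its levels were 541, 575, 558 and 556 TPM in the vehicle livers, and its counts were 6, 3, 4 and 6 in the vehicle kidneys. The log2 difference was 12.85 ± 0.26 (adjusted p = 2.59e-10). Otc met the filter of 10 counts in 50% of the libraries through the 4 livers alone, so it had to differ, and it was not tested where 1 vehicle liver was left out. Nags stood at 71.5, 90.6, 95.4 and 90.3 TPM in the vehicle livers and at 0.279, 1.53, 1.65 and 0.692 TPM in the vehicle kidneys. The log2 difference of Nags was smaller than those of Cps1 and Otc, at 6.80 ± 0.45 (adjusted p = 2.68e-07), although no kidney reached the lowest liver.

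Ass1 and Asl differed far less between the tissues. Ass1 was the most abundant member in both, with 3442, 3757, 4422 and 3471 TPM in the vehicle livers and 2553, 3532, 3479 and 3628 TPM in the vehicle kidneys. These ranges overlapped, and 2 of the 4 livers lay above every kidney. Asl was at 241, 315, 349 and 265 TPM in the vehicle livers and at 159.7, 273, 150.2 and 194 TPM in the vehicle kidneys, again with overlap. Whether Ass1 and Asl count as higher in liver depended on the scaling. With scaling factors by TMM, which assumes that most genes do not differ, the log2 differences were 0.65 ± 0.19 for Ass1 (adjusted p = 0.0129) and 1.01 ± 0.26 for Asl (adjusted p = 0.00628). With library totals and no scaling factor, an alternative added after seeing the data, they were 0.06 (adjusted p = 0.780) and 0.44 (adjusted p = 0.107).

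The carriers lay between these patterns. Slc25a15, the ornithine carrier, measured 156, 162, 195 and 172 TPM in the vehicle livers and 78.0, 58.8, 74.0 and 77.9 TPM in the vehicle kidneys, a log2 difference of 1.72 ± 0.12 (adjusted p = 5.29e-07). Slc25a13 measured 81.9, 95.7, 87.8 and 82.0 TPM in the vehicle livers and 37.0, 22.9, 45.2 and 36.6 TPM in the vehicle kidneys, a log2 difference of 1.79 ± 0.15 (adjusted p = 2.17e-06). Neither carrier overlapped between the tissues.

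In the vehicle mice, then, 7 of the 7 members passed the test as higher in liver and none as lower, where 53.4% of all 17245 genes tested passed in either direction and 25.7% as higher in liver. Of the 7, Otc met the filter only through the livers. In the 7c mice, an independent set of libraries, 65.7% of 17117 genes passed, 30.9% as higher and 34.8% as lower in liver. The same 7 members were higher there (n = 6 and 6), where Otc met the filter through the 6 livers and 1 kidney and Cps1 through the 6 livers and 2 kidneys. The largest difference in the 7c mice was that of Cps1 (14.98 ± 0.52, adjusted p = 1.34e-12), with Otc next (13.38 ± 0.48, adjusted p = 1.73e-12). The median log2 difference over the members was 1.79 in vehicle and 1.90 in 7c mice, beside -0.06 and -0.08 over all genes tested. With library totals, Ass1 at 0.03 (adjusted p = 0.804) and Asl at 0.41 (adjusted p = 0.0629) no longer passed in the 7c mice either.

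**Figure D1:**
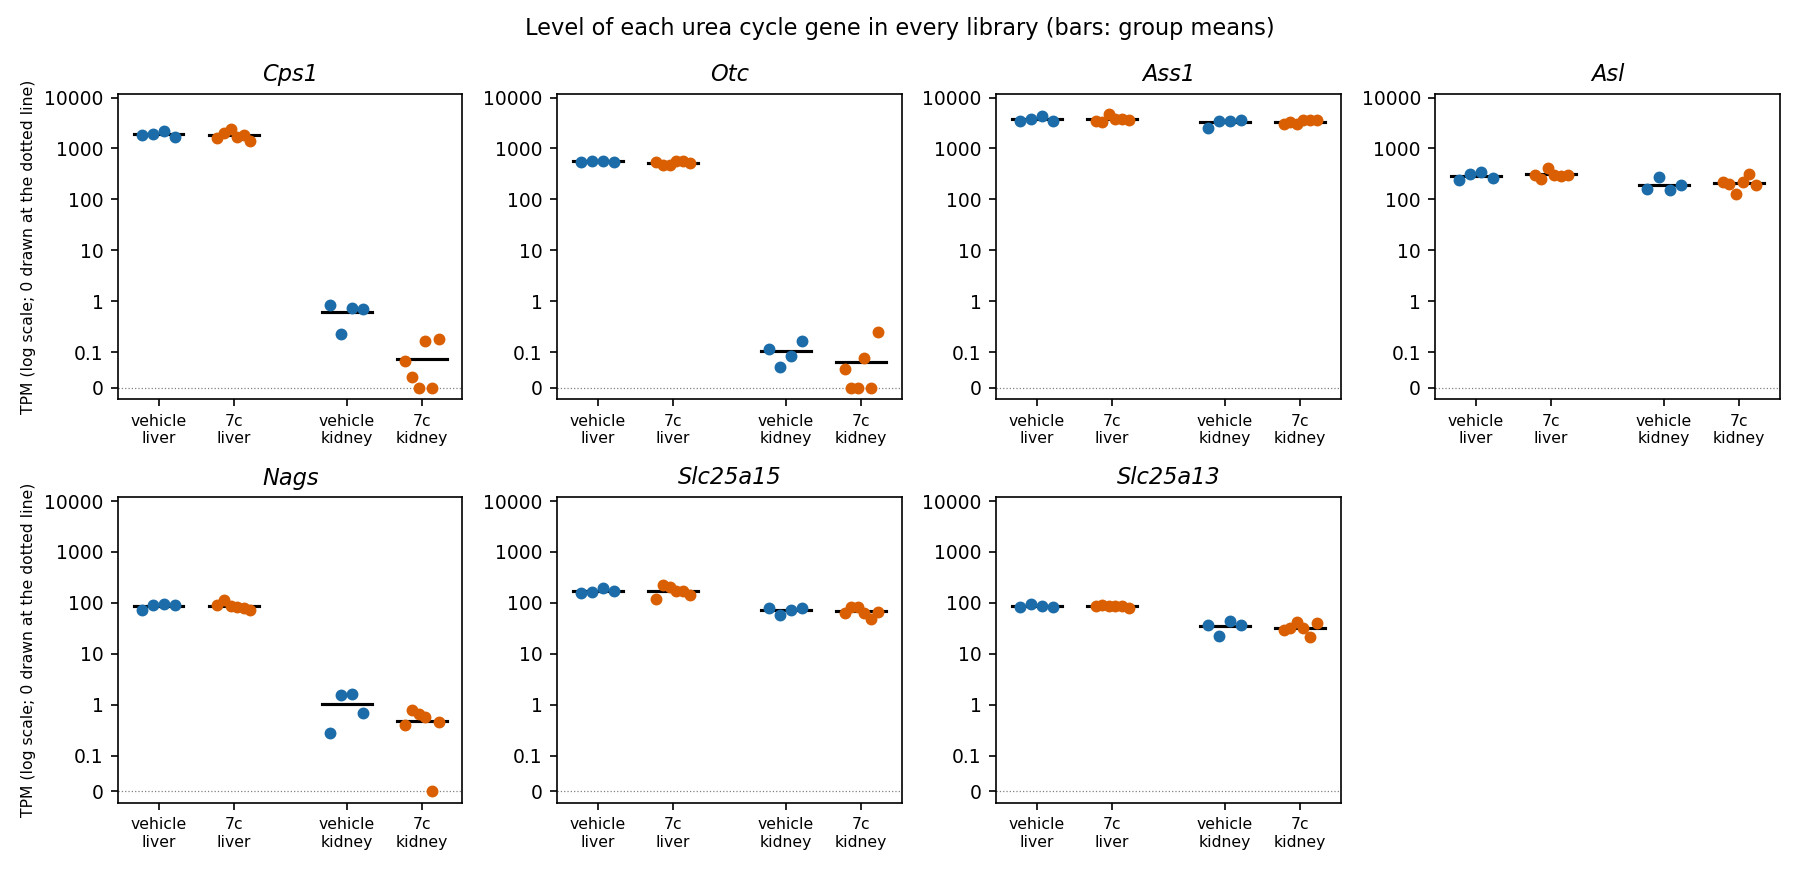
TPM of each of the 7 genes in every library on a logarithmic axis, with libraries at 0 drawn on the dotted line, points for single libraries (blue vehicle, orange 7c) and bars for group means. Cps1, Otc and Nags fall to 1.65 TPM or less in kidney, and Ass1 stays at or above 2553 TPM in all 20 libraries.

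Ranked by level over the 10 livers, the order of the medians was Ass1 (3725 TPM), Cps1 (1841), Otc (548), Asl (306), Slc25a15 (173), Nags (88.9) and Slc25a13 (86.9). Nags lay above Slc25a13 in 5 of 10 livers, so this pair could not be ordered. Every other neighbour differed in 10 of 10 livers. With the length of the longest transcript in place of all exons, Slc25a13 lay above Nags in 10 of 10 livers, and Otc and Asl overlapped.

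In the 10 kidneys the order was Ass1 (3506 TPM), Asl (199), Slc25a15 (70.1), Slc25a13 (34.8), Nags (0.624), Cps1 (0.177) and Otc (0.0649). The first 4 held their order in 10 of 10 kidneys, and the ranges of the last 3 overlapped with their neighbours. Together the 7 genes took 0.798% to 1.11% of all counts in a liver and 0.349% to 0.516% in a kidney, where Ass1 had the most counts of the 7.

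Spread between animals was small for the liver set. Over the 10 livers, the coefficient of variation of CPM was lowest for Slc25a13 (4.36%) and Otc (8.58%) and reached 17.2% for Asl. Over the 10 kidneys, Asl varied more (36.3%), whereas Ass1 varied by 16.0%, and the ratio of Ass1 to Asl in TPM was 11.4 to 14.3 among the livers but 11.5 to 23.7 among the kidneys.

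Citrin shares its reaction with Slc25a12, the other mitochondrial aspartate carrier. Citrin made up 89.9% to 93.1% of the summed TPM of Slc25a12 and Slc25a13 in liver and 45.1% to 55.4% in kidney.

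The genes around the cycle were followed in 5 lists, whose counts stand beside 25.7% of all genes tested as higher and 27.7% as lower in vehicle liver. Of 11 genes of ammonia and glutamine handling, 8 were higher and 3 lower in vehicle liver than in vehicle kidney, 1 of these 3 (Rhcg) having met the filter through the kidneys alone, so that it had to differ. Gls2, a glutaminase that releases ammonia (log2 difference 10.28 ± 0.38, adjusted p = 3.89e-09) and Car5a, the mitochondrial carbonic anhydrase that supplies bicarbonate to Cps1 (5.65 ± 0.32, adjusted p = 7.14e-08), were the highest of that list. At its other end were Rhbg, an ammonia channel (-1.95 ± 0.37, adjusted p = 0.00102), and Rhcg, the ammonia channel of the collecting duct, which had 0 counts in every liver and 2457 to 6551 in the kidneys.

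Of 22 tested genes that use arginine and ornithine, 5 were higher and 10 lower in vehicle liver, 1 of these 10 (Nos2) through the kidneys alone. The creatine pathway divided between the organs. Gatm, which makes guanidinoacetate from arginine, was lower in liver (-5.10 ± 0.26, adjusted p = 3.02e-08), and Gamt, which methylates it to creatine, was higher (3.36 ± 0.32, adjusted p = 4.95e-06). Agmat was also higher in liver (4.45 ± 0.35, adjusted p = 1.21e-06), and Nos2 had at most 2 counts in a liver and 8 to 50 in a kidney.

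Of 13 tested transport genes for amino acids, ornithine and urea, 2 were higher and 10 lower in vehicle liver, 3 of these 10 (Slc7a9, Slc14a1 and Slc14a2) through the kidneys alone. Those higher were Aqp9 (10.99 ± 0.52, adjusted p = 1.93e-08), a channel that passes urea and glycerol, and Slc7a2, a carrier of cationic amino acids (9.06 ± 0.36, adjusted p = 5.28e-09). Aqp9 had 0 to 22 counts in the vehicle kidneys, so the livers alone sufficed for it to meet the filter. Slc7a9, which takes up cystine and dibasic amino acids in the tubule, had 2 counts or fewer in every liver against 3302 or more in every kidney, and the urea transporter Slc14a2 had 0 in every liver and 20 to 1056 in the kidneys.

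Of 10 genes of aspartate and fumarate supply, 4 were higher and 5 lower in vehicle liver, 1 of these 5 (Slc1a1) through the kidneys alone. Adss1 (2.77 ± 0.18, adjusted p = 2.03e-07) and Got1, the cytosolic aspartate aminotransferase (1.87 ± 0.15, adjusted p = 1.43e-06), were highest. Mdh2 was lower (-1.11 ± 0.25, adjusted p = 0.00339), and the aspartate and glutamate transporter Slc1a1 had 2 counts or fewer in every liver and at least 5452 in every kidney. Among 15 regulators, 10 were higher and 1 lower. Creb3l3 (8.80 ± 0.36, adjusted p = 7.36e-09) and Foxa2 (8.38 ± 0.58, adjusted p = 3.65e-07), both transcription factors of hepatocytes, led, while the coactivator Ppargc1a was lower (-2.11 ± 0.19, adjusted p = 3.38e-06). Foxa2 had 0 to 12 counts in the vehicle kidneys, so the livers alone sufficed for it to meet the filter. Hnf4a, a nuclear receptor of hepatocytes and of the proximal tubule, did not pass (-0.11 ± 0.16, adjusted p = 0.598), but passed as lower in liver with library totals (-0.72, adjusted p = 0.00175).

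The next question was whether 28 days of 7c changed the cycle in liver. None of the 7 urea cycle genes tested passed the threshold, where 0.00666% of the 15012 genes tested did (1 gene). None of the 7 had an unadjusted p below 0.05 either, against 565 of all genes, and the counts of members past the threshold were also 0 by DESeq2 and by limma-voom.

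In the 7c livers, Cps1 had a lowest, median and highest level of 1391, 1780.0 and 2434 TPM, a range that enclosed all 4 vehicle livers. The log2 fold change was -0.02 ± 0.13, with a 95% interval from -0.31 to 0.27 and an exact permutation p of 0.838 (two-sided, over all 210 ways to assign 6 and 4 labels, as below). For Otc the 7c livers ran from 467 over 528 to 568 TPM, with a log2 fold change of -0.06 ± 0.10 (interval -0.26 to 0.15). Without 7c liver replicate 2 the fold change of Otc was -0.004, and without 7c liver replicate 4 it was -0.09. Nags, at 72.8, 85.2 and 115 TPM in the 7c livers, had a log2 fold change of 0.05 ± 0.10 (-0.17 to 0.27).

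Ass1 and Asl, in the cytosol, overlapped with vehicle as well. Ass1 in the 7c livers ran from 3325 over 3733 to 4682 TPM (log2 fold change 0.05 ± 0.12, interval -0.21 to 0.31). Asl ran from 249 over 306 to 412 TPM, with the widest interval of the 7 (0.14 ± 0.14, -0.16 to 0.45). Without 7c liver replicate 3 its log2 fold change was 0.05, and without vehicle liver replicate 3 it was 0.23.

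For the carriers the log2 fold changes were 0.04 ± 0.14 (Slc25a15, interval -0.25 to 0.34) and 0.03 ± 0.08 (Slc25a13, interval -0.14 to 0.19). Every adjusted p in liver was 1.00 in edgeR's test, and the exact permutation p ran from 0.457 to 0.900. The widest of these intervals, that of Asl, reached 0.45 on the log2 scale, and changes within the intervals were not detectable with 6 and 4 mice. The zonal markers did not pass the threshold in liver either, with a median log2 fold change of -0.00189 over 8 periportal genes and 0.19 over 9 pericentral genes.

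**Figure D2:**
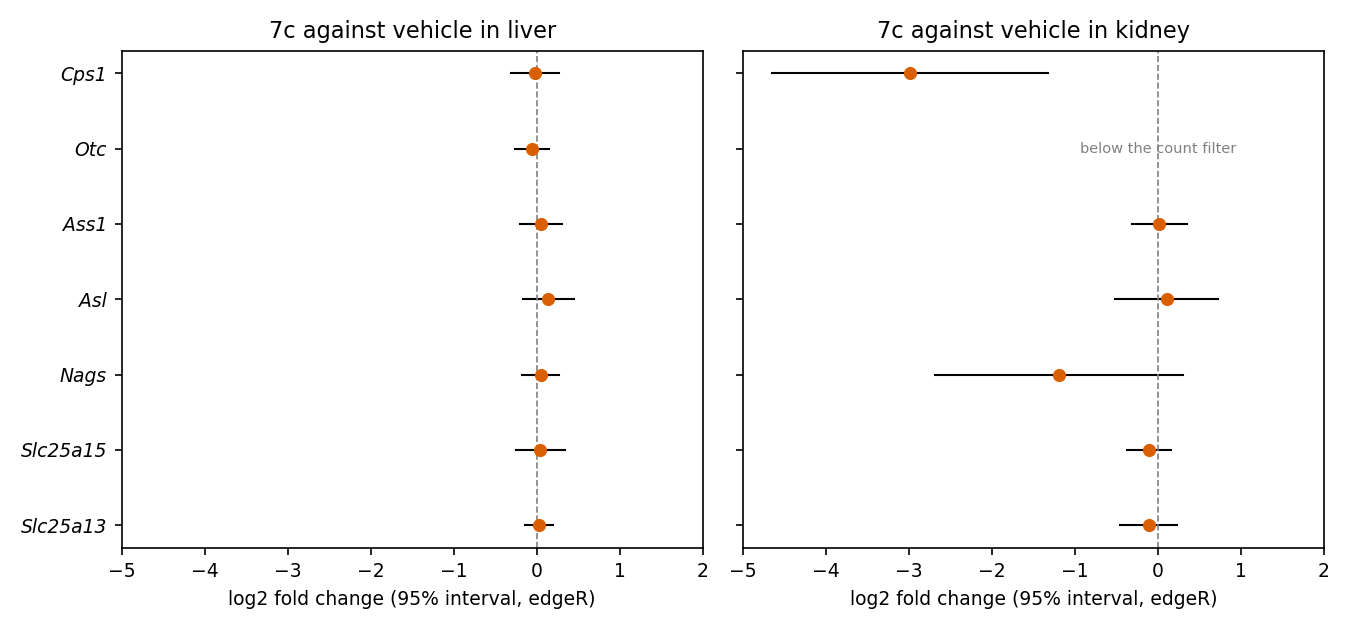
Log2 fold change of 7c against vehicle for each gene (orange point) with its 95% interval (line) from edgeR's quasi-likelihood fit, in liver (left) and kidney (right). All 7 intervals in liver include 0 and stay within -0.31 to 0.45, whereas that of Cps1 (-2.99) in kidney lies below 0 without passing the adjusted threshold.

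In kidney, no change of the members that carry arginine synthesis was detectable. Ass1 in the 7c kidneys ran from 2993 over 3488 to 3667 TPM and overlapped with vehicle (log2 fold change 0.02 ± 0.15, interval -0.31 to 0.35). Asl ran from 126 over 212 to 318 TPM, which enclosed all 4 vehicle kidneys (0.11 ± 0.29, -0.52 to 0.73). Slc25a15 (-0.11 ± 0.12, -0.37 to 0.15) and Slc25a13 (-0.11 ± 0.16, -0.45 to 0.24) overlapped too. Without vehicle kidney replicate 2 or 3 the value of Slc25a13 was -0.20 or -0.01, and without 7c kidney replicate 2 or 5 that of Slc25a15 was -0.16 or -0.05.

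Of the members close to absent from kidney, Cps1 had lower values in the 7c kidneys, at very low levels and without passing the adjusted threshold. Cps1 had 58, 18, 48 and 36 counts in the vehicle kidneys and 8, 2, 0, 12, 0 and 14 in the 7c kidneys. These are 1.52, 0.501, 1.28 and 1.26 CPM against at most 0.336 CPM, and all 6 7c kidneys lay below every vehicle kidney. The share of all genes tested that separated in this way was not counted. Of the 12 hepatocyte markers described below, 1 (F2) separated likewise. The log2 fold change was -2.99 ± 0.77 (interval -4.64 to -1.33, unadjusted p = 0.00195), which did not pass over all genes in edgeR's test (adjusted p = 0.997), and the exact permutation p for this gene alone was 0.00952, where the smallest possible is 0.00476. Cps1 passed the filter on low counts through the 4 vehicle kidneys and 2 of the 7c kidneys.

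Nags, at 9, 56, 49 and 16 counts in vehicle and 22, 22, 20, 19, 0 and 16 in the 7c kidneys, overlapped between the groups (-1.19 ± 0.69, interval -2.68 to 0.30). Otc stayed below the filter of 10 counts in 50% of the kidneys, with 6, 3, 4 and 6 counts in vehicle and 4, 0, 0, 4, 0 and 14 in 7c. Of the 6 members tested in kidney, 0 passed the adjusted threshold, as did 0% of all 17749 genes, and 1 had an unadjusted p below 0.05, against 463 of all genes. DESeq2 and limma-voom called none of the 6. In a fit of all 20 libraries, which share 1 estimate of the spread, Cps1 passed (adjusted p = 0.00529).

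Other transcripts of hepatocytes were also measured in these kidneys. Of the 12 hepatocyte markers, 10 had a lower mean in the 7c kidneys, with a median log2 fold change of -0.72 over the 12. Of the 12, 5 had an unadjusted p below 0.05 (Alb, Apoa1, Apoa2, Ahsg and F2), beside 463 of all 17749 genes, and 0 passed the adjusted threshold. Apoc3 (9.90 CPM in 7c against 6.63 in vehicle) and Itih1 (12.3 against 11.1) had a higher mean in 7c. Fga (20.5 against 21.0 CPM) and Serpinc1 (5.18 against 5.59 CPM) differed little. Their summed level was 260.7 to 377.9 CPM in the vehicle kidneys and 126.7 to 375.1 CPM in the 7c kidneys, and none of the 12 was at 0 in a group. Ttr alone stood at 167 to 243 CPM in the vehicle and 67.1 to 313 CPM in the 7c kidneys. Albumin, the defining marker, stood at 22.8 to 44.0 CPM in vehicle and 8.69 to 30.7 CPM in 7c kidneys. The part of hepatocyte transcripts in the lower Cps1 was not tested.

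Counts of the members were also set against those of albumin. Cps1 counts were 3.21% to 6.79% of Alb counts in the livers, 1.31% to 5.50% in the vehicle kidneys and 0% to 1.40% in the 7c kidneys. Nags was at 0.0777% to 0.162% of Alb in liver but 0.534% to 4.08% in vehicle kidney and 0% to 5.61% in 7c kidney. Otc was at 0.868% to 1.37% of Alb in liver, 0.219% to 0.917% in vehicle kidney and 0% to 1.09% in 7c kidney. Adipocyte markers had the opposite sign to most hepatocyte markers in kidney. A positive log2 fold change and an unadjusted p below 0.05 were found for 7 of 7 tested genes. Over all 17749 genes, 463 had such a p. Summed levels were 37.4 to 49.5 CPM in vehicle and 58.5 to 171 CPM in 7c, and none of the genes passed the adjusted threshold. Fabp4 alone stood at 31.6 to 48.9 CPM in the vehicle and 43.8 to 100 CPM in the 7c kidneys.

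**Figure D3:**
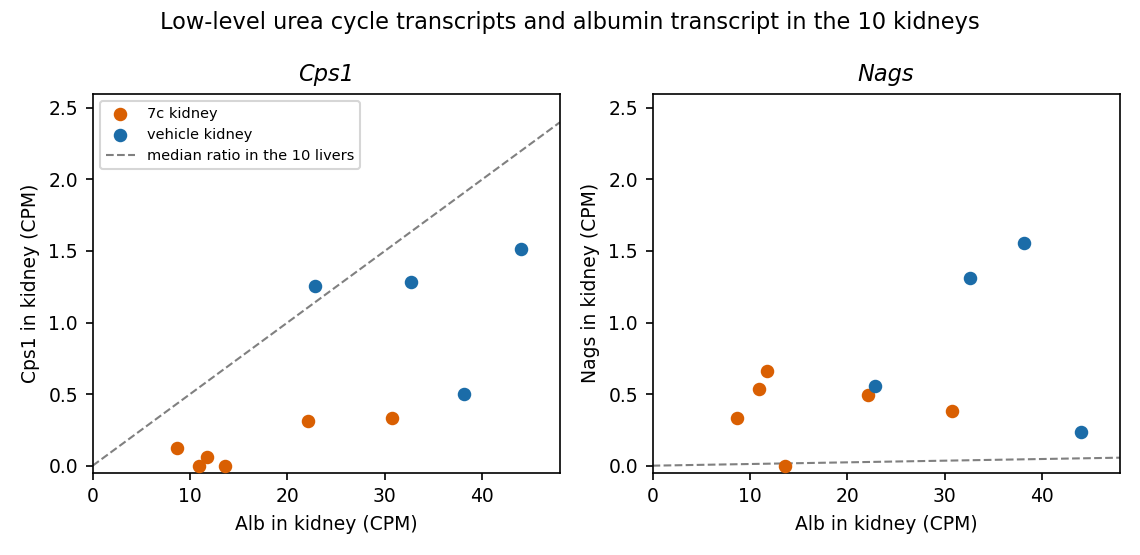
CPM of Cps1 and Nags against CPM of Alb in the 10 kidneys (blue vehicle, orange 7c), with the median ratio of the 10 livers as a dashed line. The 6 7c kidneys lie at or below 0.336 CPM for Cps1, while Nags lies above the line of the livers in 9 of the 10 kidneys.

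The effect of 7c in liver minus that in kidney was tested directly over 14163 genes, of which 0.00706% passed (1 gene). None of the 6 members tested passed, and 2 had an unadjusted p below 0.05, against 353 of all genes. Cps1 ranked 4th of all genes by p, with a difference of 2.92 ± 0.56 on the log2 scale (edgeR's adjusted p = 0.114). Nags differed by 1.24 ± 0.52 (unadjusted p = 0.0265, adjusted p = 1.00), and the remaining 4 by 0.02 to 0.14. Of these 4, Slc25a13 moved to 0.28 without vehicle replicate 2 and to 0.03 without vehicle replicate 3. Slc25a15 moved to 0.08 without 7c replicate 5 and to 0.22 without vehicle replicate 3. In liver the log2 fold changes of Cps1 and Nags were -0.02 and 0.05, as given above. The kidney transcripts of both were under 60 counts in every library.

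Without 7c replicate 6 in both tissues, the interaction passed for Cps1 (3.41, adjusted p = 0.0245), and leaving out any other replicate number of 1 treatment gave 0 members past the threshold. Cps1 also passed by the likelihood ratio test (adjusted p = 4.87e-08) and without a filter on low counts (adjusted p = 0.0128). DESeq2 called none of the 6. With all counts halved, an alternative added after the even counts were seen, Cps1 did not pass (adjusted p = 0.0648).

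None of the genes around the cycle passed the threshold for 7c in either tissue or in the difference between them. In liver the smallest unadjusted p of each list belonged to Glul (0.24 ± 0.10), Prodh (0.35 ± 0.10), Slc7a7 (-0.70 ± 0.31), Adss1 (0.37 ± 0.13) and the transcription factor Cebpb (0.68 ± 0.23). In kidney they belonged to Rhcg (0.26 ± 0.13), Sms (-0.22 ± 0.13), Slc14a2 (1.28 ± 0.83, and 3.16 without vehicle kidney replicate 2), Adss1 (0.79 ± 0.17) and Cebpb (0.55 ± 0.21). Adss1, which makes adenylosuccinate from aspartate, was thus among these in both tissues. In kidney its unadjusted p was 0.000571 in edgeR's test, with an adjusted p of 0.997, and it passed by DESeq2 (adjusted p = 0.0163) and in the fit of all 20 libraries (adjusted p = 0.0361). For the difference between tissues the smallest p in each list belonged to Slc1a2 (0.55 ± 0.34), Ddah1 (0.58 ± 0.30), Slc7a7 (-0.60 ± 0.32), Adss1 (-0.43 ± 0.21) and Trp53 (-0.28 ± 0.18), each with an adjusted p of 1.00. These differences moved with single replicates, Ddah1 to 0.36 without vehicle replicate 2 and 0.98 without vehicle replicate 3, Slc1a2 to 0.37 without vehicle replicate 1 and 0.93 without vehicle replicate 2, Slc7a7 to -0.34 without vehicle replicate 3 and Trp53 to -0.15 without vehicle replicate 1. In liver, Slc7a7 was at -0.43 without vehicle liver replicate 3.

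Last, the members were compared with each other across mice, with p-values adjusted over 13 pairs of log2 CPM, of which 7 are reported. Ass1 and Asl, which act in succession on citrulline and argininosuccinate, varied together in liver with Pearson's r = 0.923 over 10 livers (permutation p = 0.00031, adjusted over the 13 pairs 0.00403) and Spearman's rho = 0.891 (permutation p = 0.00123, adjusted 0.0160). Without 7c liver replicates 2 and 3, the lowest and the highest in Ass1, r was 0.748, and over the 6 7c livers alone it was 0.962. By r with Ass1 in liver, Asl ranked 3rd of the 15011 other genes tested.

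In the 10 kidneys the same pair gave r = 0.795 (permutation p = 0.00650, adjusted 0.0423) and rho = 0.721 (permutation p = 0.0232, adjusted 0.0990). Leaving out 7c replicate 3, 4 or 5 or vehicle replicate 2 or 4 lifted the adjusted p of r above the threshold, to 0.122, 0.0666, 0.0822, 0.114 and 0.0602 by the same permutation test. An absolute r above 0.8 with Asl was found for 25.8% of all genes in kidney and 1.02% in liver, and one with Ass1 for 6.56% in kidney and 0.620% in liver.

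The other 5 liver pairs reported did not pass, with r from -0.326 to 0.607 and adjusted permutation p from 0.134 to 0.722. Cps1 and Ass1 (r = 0.607) gave r = 0.796 without 7c replicate 6 (adjusted permutation p = 0.0499) and r = 0.264 without 7c replicate 3. Cps1 and Otc, successive steps in the mitochondrion, gave r = -0.326 (permutation p = 0.348, adjusted 0.452) and rho = -0.176 (permutation p = 0.630, adjusted 0.682), with r of -0.531 without 7c replicate 2 and -0.0804 without 7c replicate 3.

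**Figure D4:**
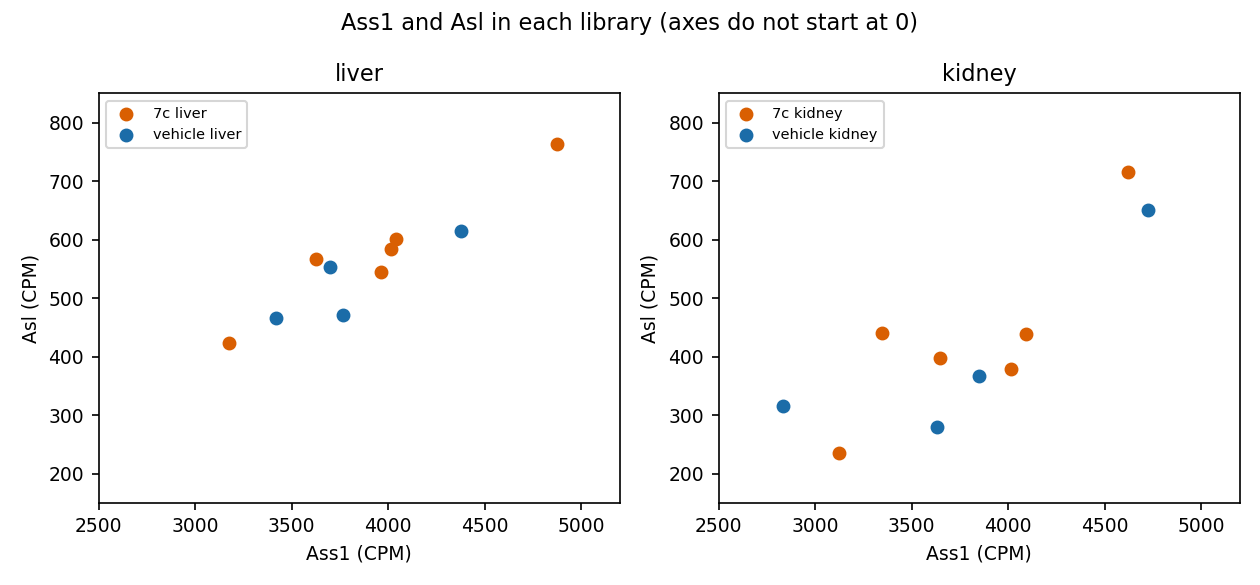
CPM of Asl against CPM of Ass1 in each library (blue vehicle, orange 7c) in liver (left) and kidney (right), on axes that do not start at 0. The livers lie along 1 rising line with 7c liver replicate 3 at its upper end (4874 CPM of Ass1 and 764 CPM of Asl), and the kidneys scatter more widely.

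As a description without a test, the 5 genes with the highest r with Cps1 over the 10 livers were Proser2 (0.926), Zbtb41 (0.885), Tmem132e (0.882), Slc12a2 (0.868) and Haus6 (0.867), none of them a member. Of the members, Slc25a15 came nearest to Cps1, at rank 264, and Ass1 next, at rank 460. The 5 genes most like Ass1 over the 10 kidneys were Krt19 (0.956), Hmcn2 (0.945), the pseudogene Mrps36-ps2 (0.940), R3hcc1 (0.939) and Cdk18 (0.938), and Asl stood at rank 613. These points share their library, its depth and its cell composition.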

How the data were processed

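Liver and kidney RNA of UM-HET3 mice was sequenced from stranded, polyadenylated libraries. The deposited values are raw counts per gene, which the authors made with STAR 2.7.11b, GRCm39 and featureCounts 2.0.6. The annotation release, the strand setting and the treatment of paired and multiply aligned reads are not given in the sources used here. Symbols, positions and lengths were taken from GENCODE (GRCm39), and TPM was computed with the summed exon length. Asl, Nags and Slc25a15 overlap exons of genes on the other strand, so their reads may not be told apart if strand was ignored.

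A gene was tested where no fewer than 50% of the libraries of a fit (for the interaction, of each tissue) had 10 counts or more, with edgeR 4.0.16 (R 4.3.3): TMM, quasi-likelihood F-test, tissue or treatment as the only term, or both with their interaction, Benjamini-Hochberg adjustment and a threshold of 0.05. Alternatives used DESeq2 1.42.0 and limma 3.58.1. CPM was scaled by TMM factors within each tissue, and log2 CPM had a prior count of 2. The fitting steps were tested on simulated data. All members were named, together with the extremes of 5 lists of related genes. The members and lists were chosen with earlier results of these data known. Of the set and the lists, 4 genes are not reported here.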

Additional observations from a re-analysis of the deposited data

Results flagged for a closer look

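In 1 of the 28 groups of member levels examined, a single library stood apart from the rest of its group. Otc measured 0.336 CPM (14 counts) in 7c kidney replicate 6, where the other 5 7c kidneys lay between 0 and 0.103 CPM. Chance alone sets apart about 1 in 20 groups. The same library also held the highest Cps1 (0.336 CPM) of the 7c kidneys, also from 14 counts.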

How the results depend on the processing

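Between 0 and 2 genes in liver and 0 and 3 in kidney passed for 7c when 1 library was left out. For the interaction, 0 to 6 genes and 0 to 1 members passed when 1 replicate number of 1 treatment was left out in both tissues. In liver, 6 genes passed by DESeq2, 7 by the likelihood ratio test, 4 without a filter, 2 with filterByExpr and 4 with all 20 libraries. In kidney the counts were 18 by DESeq2, 14 by the likelihood ratio test, 2 by limma-voom, 3 without a filter, 2 with halved counts and 18 with all 20 libraries, the last including 1 member. For the interaction, 14 genes and 0 members passed by DESeq2, 22 and 1 (Cps1) by the likelihood ratio test, 11 and 1 (Cps1) without a filter, 4 and 0 with filterByExpr, and 0 genes by limma-voom. The cause of these differences was not tested. With the replicate number as a block, 0 genes passed in liver and 0 in the interaction. Fold changes turned to 0.0334 for Cps1 in liver and to -0.0658 for Ass1 and -0.0554 for Asl in kidney. In the interaction that of Asl turned to -0.000408. Within a tissue this block joined 7c and vehicle libraries of the same number, which are different mice, so it has no basis in the design. Their deviations correlated at a median of -0.019. In the interaction the block joined the liver and kidney libraries of the same number and treatment. The labels do not say whether the same number in liver and kidney is the same mouse, and the main fits treat the samples as not paired. Same-numbered liver and kidney deviations correlated at 0.0115 to 0.259 (median 0.126), and 3 of 10 stayed at 0.1 or below. Differently numbered deviations correlated at -0.181 to 0.0923 (median -0.031, 42 pairs). As a hint of pairing from the data, 8 of 10 livers correlated best with the kidney of their own number.

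With library totals, fold changes turned to -0.00795 for Slc25a13 in liver and to -0.0295 for Ass1 and -0.0367 for Asl in the interaction. Leaving out 1 library turned signs in liver within -0.116 to 0.0527 (Cps1), -0.00945 to 0.0908 (Nags), -0.0131 to 0.125 (Slc25a15), -0.0159 to 0.125 (Ass1) and -0.0103 to 0.0655 (Slc25a13). In kidney it did so within -0.0960 to 0.152 (Ass1) and -0.0931 to 0.441 (Asl). For the interaction, 1 replicate number of 1 treatment was left out in both tissues, and signs turned within -0.0999 to 0.132 (Ass1) and -0.258 to 0.255 (Asl). Liver correlations ranged, by mouse left out, over -0.517 to 0.686 (Otc and Ass1), -0.618 to 0.615 (Otc and Asl) and -0.0410 to 0.658 (Cps1 and Asl), and 1 to 3 of the 7 pairs passed. When 1 library was left out, 7 members passed between tissues in each treatment, or 6 without 1 vehicle liver, where Otc was not tested. With library totals, Ass1 and Asl did not pass in either treatment, as given above. By library left out, the difference of Hnf4a in vehicle mice ranged from -0.228 to 0.0218, the latter without vehicle liver replicate 4. Depth limits Cps1, Nags and Otc in kidney.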
